A study of Mus musculus with 46 samples.

Results

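The Dlk1-Meg3 domain is a cluster of imprinted genes on mouse chromosome 12, and it was followed here through 6 genes, Dlk1, Meg3, Rian, Mirg, Rtl1 and Dio3. They were taken by symbol, whatever their values, from a gene table of 37108 genes and from a transcript table of 35976 genes and 106520 transcripts, in which the 6 genes hold 14 transcripts. In the domain the protein-coding genes Dlk1, Rtl1 and Dio3 are expressed mainly from the chromosome inherited from the father, and the long non-coding RNAs Meg3, Rian and Mirg from the one inherited from the mother. A methylated control region between Dlk1 and Meg3 sets this pattern. Loss of maternal Meg3 expression in mouse induced pluripotent stem cells (iPSC) is a known marker of lines that contribute poorly to chimeric mice, which is why the domain is often inspected in such lines.

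Mouse embryonic fibroblasts (MEF) were reprogrammed with retroviral Oct4 together with native Nanog (NanogWT, Nanog+Oct4 in the labels) or with Nanog fused at its N-terminus to the BRG1-interacting domain of SS18, which belongs to the BAF complex that remodels chromatin (NanogBiD, NanogN70+Oct4 in the labels). The time course holds 31 RNA-seq libraries from D0 to D12 (the days D0, D1, D3, D5, D7 and D8, then D10 and D12), with pairs of replicates throughout but 1 library for NanogBiD at D8. The other libraries are 12 iPSC samples (6 per combination), 2 MEF samples and 1 sample of mouse embryonic stem cells (OG2-mES, here mES). The iPSC labels carry iPSC1 or iPSC2, here called lines, and a number such as 1#, here called the clone number. What either stands for is not stated in the labels, and iPSC1 and iPSC2 each hold samples of both combinations. Per the study's methods the MEF came from mid-gestation embryos of OG2 fathers, which carry an Oct4-GFP reporter, and mothers of another strain, and both iPSC and mES were kept without feeders in the 2i and LIF medium. Day 0 follows the viral infections, so that D0 cells had already received the factors, and the medium was changed to 2i and LIF around D7. NanogBiD and NanogWT cells shared Oct4, the MEF background and the media. The table headers give p5 or p6 for iPSC1, p2 for iPSC2, p2 for MEF and p20 for mES, so that line and passage cannot be told apart, and the samples 1# and 1#-2 of NanogWT iPSC1 share a clone number. Nothing in the labels says that replicates came from separate embryos, so p-values measure the spread between these libraries, which may be technical.

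Values are FPKM, which corrects fragment numbers for gene length and sequencing depth. In the gene table they proved to be whole numbers of reads times a constant, which gave 13130000 to 17830000 reads for 25 time-course libraries and 29980000 to 51520000 for the 6 NanogWT libraries of D8 to D12. The MEF libraries (15240000 to 15630000 reads) and mES (14520000 reads) were at the common depth, and the depth behind the transcript table is unknown. The summed level of 9 fibroblast markers (collagens, Thy1, Dcn and others) in the gene table was 5896 to 6797 FPKM in MEF, 2358 to 3043 at D0 and 4.33 in mES, where 8 of the 9 markers were under 1 FPKM. In NanogWT it fell to 1402 to 1407 FPKM at D3 and was back at 2928 to 3328 at D12. In NanogBiD it was 784 to 893 FPKM at D3 and 296 to 436 at D12. In the transcript table the summed level of 9 pluripotency markers came to 2436 to 5852 FPKM in the iPSC, 3817 in mES and 12.2 to 13.3 in MEF. Markers of primitive endoderm, trophoblast and fat cells summed to at most 15.8 FPKM in any library. In bulk samples fewer cells of a type and less RNA per cell cannot be told apart.

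The members lie on GRCm38.p6 chromosome 12 in the order Dlk1 (chr12:109452485-109463336), Meg3 (chr12:109540996-109571729), Rtl1 (chr12:109564900-109604418), Rian (chr12:109603945-109661716), Mirg (chr12:109734981-109749458) and Dio3 (chr12:110279230-110281097). The Rtl1 model overlaps parts of those of Meg3 and Rian. Rtl1 is a retrotransposon-derived gene transcribed against the direction of the others, and 13 of the 15 microRNA hairpins inside its model lie on the opposite, plus strand. Whether strand was used in counting is not stated, so reads of Rtl1 and of the transcripts antisense to it cannot be told apart, and its values are uncertain for that reason. The mature sequences (RefSeq, GRCm38.p6) of 5 microRNAs from this antisense stretch are shown because they are complementary to Rtl1 itself; capitals mark the seed, bases 2 to 8, and the 5 seeds are all different.
miR-431-5p (chr12:109590459-109590479): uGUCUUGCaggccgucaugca
miR-433-3p (chr12:109591781-109591802): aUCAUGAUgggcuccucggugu
miR-127-3p (chr12:109592888-109592909): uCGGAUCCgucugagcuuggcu
miR-434-3p (chr12:109594565-109594586): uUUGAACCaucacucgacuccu
miR-136-5p (chr12:109595331-109595352): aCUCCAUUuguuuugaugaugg

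The promoter windows of Meg3, Dlk1 and Dio3 (RefSeq, GRCm38.p6, plus strand, 250 bases before to 50 after the RefSeq start, which for Dlk1 lies inside the gene model given above) are shown because Meg3 and Dlk1 are the members that fell most between MEF and iPSC and Dio3 is the one that rose. Capitals mark matches, on either strand, to the cAMP response element TGACGTCA, to the CCAAT box and to the TATA-like motif TATANA. A match is a description of the letters.
Meg3 (chr12:109540746-109541045): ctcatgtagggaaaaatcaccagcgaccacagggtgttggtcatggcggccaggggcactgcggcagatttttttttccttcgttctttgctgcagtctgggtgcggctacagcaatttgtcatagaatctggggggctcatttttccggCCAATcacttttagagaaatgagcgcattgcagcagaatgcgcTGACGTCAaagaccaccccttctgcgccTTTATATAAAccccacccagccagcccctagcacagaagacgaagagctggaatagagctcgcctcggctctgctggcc
Dlk1 (chr12:109452573-109452872): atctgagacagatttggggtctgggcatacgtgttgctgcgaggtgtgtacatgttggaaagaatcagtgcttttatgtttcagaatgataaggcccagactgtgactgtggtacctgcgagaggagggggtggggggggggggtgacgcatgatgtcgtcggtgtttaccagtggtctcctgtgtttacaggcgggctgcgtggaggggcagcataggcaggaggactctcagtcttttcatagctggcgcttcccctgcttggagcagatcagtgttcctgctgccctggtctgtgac
Dio3 (chr12:110278980-110279279): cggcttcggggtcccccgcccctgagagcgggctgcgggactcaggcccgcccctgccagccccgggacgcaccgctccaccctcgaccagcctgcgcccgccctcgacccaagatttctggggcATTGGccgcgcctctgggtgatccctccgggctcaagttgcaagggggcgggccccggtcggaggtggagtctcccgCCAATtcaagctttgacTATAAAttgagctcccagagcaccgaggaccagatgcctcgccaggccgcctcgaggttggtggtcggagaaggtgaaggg
The Meg3 window holds TGACGTCA 57 bases before the start, an element found in 1.79% of 32851 promoter windows, with the CCAAT box 100 bases before the start (37.4% of windows) and overlapping TATANA matches from 29 bases before it (24.7% of windows). The Dio3 window holds a CCAAT box on the minus strand 125 bases and another on the plus strand 48 bases before the start, and a TATANA match from 31 bases before it. None of the 3 motifs was found in the Dlk1 window. The windows differed in CG content, with 25 CG pairs for Dio3, 13 for Meg3 and 9 for Dlk1, and 81.6%, 62.1% and 54.2% of all windows held fewer.

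In the starting fibroblasts the domain was active on both sides. Rian, the host of the domain's small nucleolar RNAs, was at 137 and 71.4 FPKM in the 2 MEF libraries (gene table). Meg3 stood at 49.7 and 26.2 FPKM, Dlk1 at 48.7 and 14.5, and Mirg, a microRNA host, at 13.1 and 5.27. Dlk1 encodes a Notch-like membrane protein known as preadipocyte factor. MEF replicate 1 was the higher one for all 6 members. Rtl1 was low, at 0.602 and 0.281 FPKM, and Dio3, the deiodinase that inactivates thyroid hormone, rested on 10 and 2 reads. In mES, Rian (26.3 FPKM), Meg3 (5.56) and Mirg (4.03) were detected, Dlk1 (0.672, 47 reads) and Rtl1 (0.250, 19 reads) were low, and Dio3 was at 1.47 FPKM (40 reads). The single mES library lay below both MEF libraries for 5 members and above both for Dio3.

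**Figure D1:**
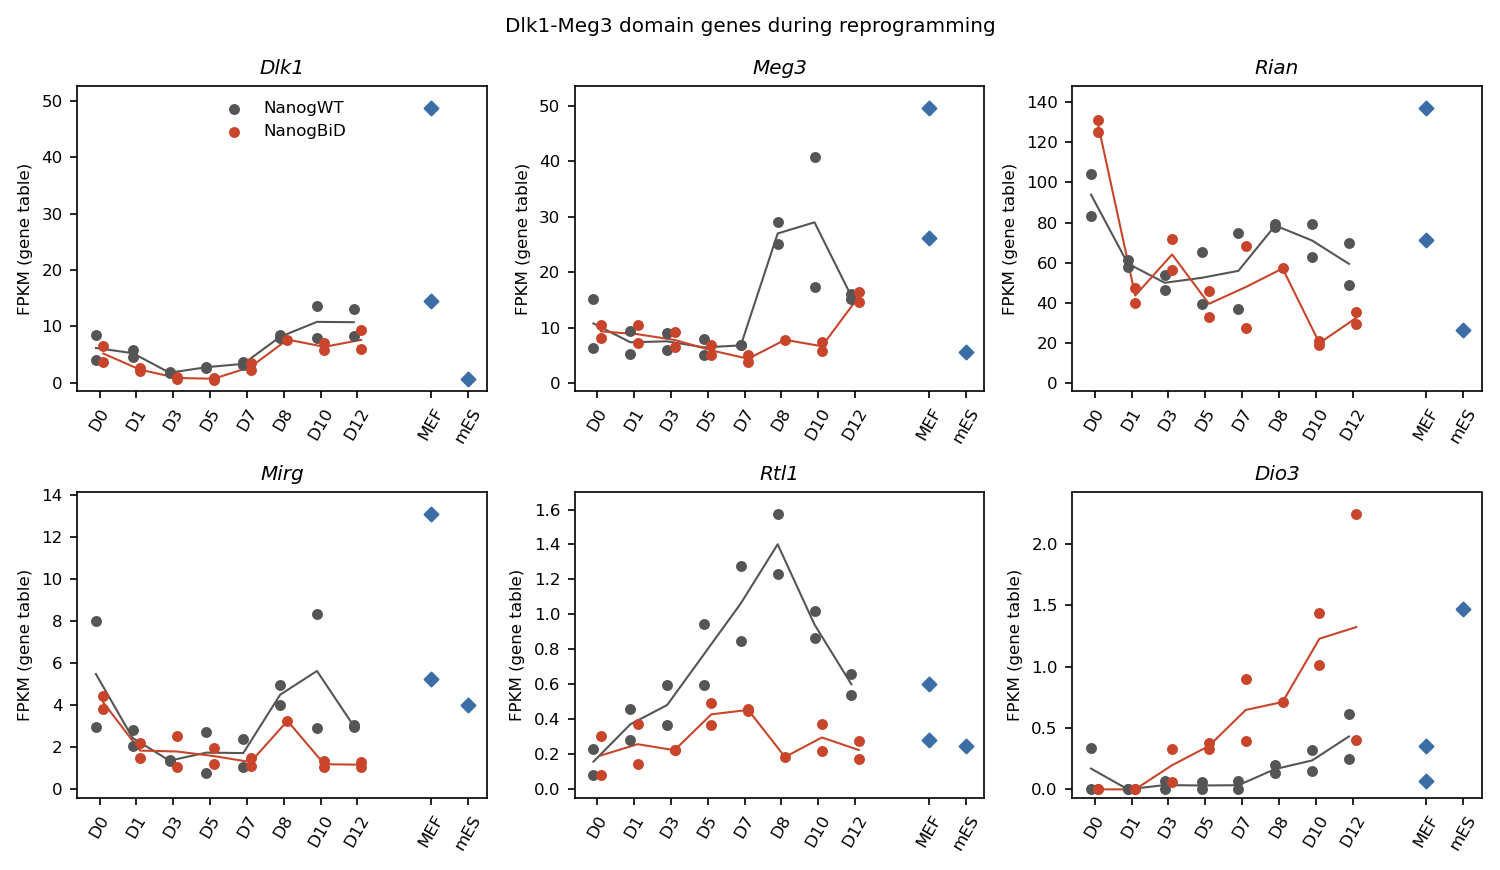
Level (FPKM, gene table, linear axes from about 0) of each member by day for NanogWT (grey) and NanogBiD (red), with the MEF and mES libraries as blue diamonds; points are libraries and lines join the means. Dlk1 reached its lowest levels at D3 and D5 and rose later, Meg3 was high in NanogWT at D8 and D10, and Dio3 reached 2.24 FPKM in a NanogBiD library at D12.

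All 6 members had at least 1 FPKM in at least 2 of the 31 time-course libraries and entered the test of 16842 genes. Rtl1 did so only through NanogWT libraries and Dio3 only through NanogBiD libraries, so their passing is not independent of where they are high. A call below means an adjusted p under 0.05 (limma on log2(FPKM + 1), Benjamini-Hochberg over all genes tested) together with a log2 difference of at least 1. Lack of overlap between time-course groups describes few libraries, mostly 2 per group. It can arise by chance, and its share over all genes was not counted.

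Dlk1, on the paternal side, fell early and came back. In NanogBiD its 2 replicates read 6.62 and 3.78 FPKM at D0, 1.03 and 0.701 at D3, 0.540 and 0.922 at D5, 7.67 in the single library at D8, and 5.96 and 9.28 at D12. In NanogWT they read 8.40 and 3.97 at D0, 1.90 and 1.69 at D3, 2.87 and 2.67 at D5, 7.89 and 8.42 at D8, and 8.37 and 13.1 at D12. The D5 values lay below the D0 and D12 values in both combinations, without overlap. From D0 to D5 Dlk1 fell by 1.81 (SE 0.30) on the log2 scale in NanogBiD (limma with Benjamini-Hochberg adjustment, adjusted p = 6.6e-05), where 19.6% of all genes tested were called. In NanogWT the difference was -0.86 (limma, Benjamini-Hochberg adjusted p = 0.0307), under the limit on size. From D5 to D12 Dlk1 rose by 2.30 (SE 0.30, adjusted p = 2.4e-06) in NanogBiD and by 1.61 (SE 0.30, adjusted p = 0.00037) in NanogWT, by limma with Benjamini-Hochberg adjustment; of all genes 27% and 11.6% were called in these contrasts. The D5 contrasts were chosen after the levels had been seen.

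At D5 Dlk1 was lower in NanogBiD than in NanogWT, and it was the only member called between the combinations on that day, when 6.48% of genes were called and 3.28% were called lower. The difference was -1.13 (SE 0.30, limma with Benjamini-Hochberg adjustment, adjusted p = 0.0126), and the 2 NanogBiD values lay below both NanogWT values. Without replicate 1 of either combination at D5 the call was lost (adjusted p up to 0.126). The fibroblast marker sum was also lower in NanogBiD at D5, at 983 to 1036 FPKM against 1626 to 1653, and its part in the result was not tested. At its lowest the NanogBiD mean of Dlk1 was 1.09-fold the mES level, and at D12 the means were 11.3-fold (NanogBiD) and 16-fold (NanogWT) above mES, at 24.1% and 34.0% of the MEF mean.

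Meg3, the first of the maternal RNAs, lay between 3.70 and 15.2 FPKM from D0 to D7 and then parted between the combinations. It read 6.78 and 6.76 FPKM in NanogWT and 3.70 and 5.00 in NanogBiD at D7. In NanogWT it was at 25 and 29 FPKM at D8 and 40.7 and 17.3 at D10, whereas NanogBiD had 7.78 at D8 and 5.77 and 7.46 at D10. Every NanogWT value at D8 and D10 lay above every NanogBiD value of those days. At D12 the combinations met again, at 15.2 and 16.1 FPKM in NanogWT and 14.6 and 16.5 in NanogBiD, with overlap. The rise of Meg3 from D5 to D12 was 1.2 (SE 0.37, adjusted p = 0.0200) in NanogWT and 1.28 (SE 0.37, adjusted p = 0.0065) in NanogBiD (limma with Benjamini-Hochberg adjustment). The NanogWT call was lost without replicate 1 of D5 or without either replicate of D12, and the NanogBiD call without replicate 1 of D5 (limma adjusted p up to 0.194 and 0.0625). The medium change around D7 falls between these days, and its part cannot be told apart from that of time.

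At D10 the 3 maternal RNAs were lower in NanogBiD than in NanogWT, and no other member was called. Meg3 differed by -1.87 (SE 0.37, adjusted p = 0.00026), Rian by -1.78 (SE 0.34, adjusted p = 0.00019) and Mirg by -1.46 (SE 0.40, adjusted p = 0.0045), by limma with Benjamini-Hochberg adjustment; 27.8% of all genes tested were called on that day and 12.3% were called lower. Rian read 79.3 and 62.7 FPKM in NanogWT and 21.1 and 18.6 in NanogBiD, which did not overlap. Mirg read 8.36 and 2.90 against 1.35 and 1.04, and without NanogWT replicate 1 its difference was -0.83 and no longer passed (adjusted p = 0.136), while that of Meg3 was -1.27 and remained called (adjusted p = 0.0146, limma). Rtl1 and Dio3 had adjusted p of 0.0027 and 0.0085 with differences of -0.58 and 0.85, under the limit on size. The fibroblast marker sum differed in the same direction at D10, at 3367 to 3452 FPKM in NanogWT and 458 to 574 in NanogBiD, and the NanogWT libraries were read more deeply (relative depth 1.89 and 3.15 against 0.938 and 0.933). The part of either in these differences was not tested.

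**Figure D2:**
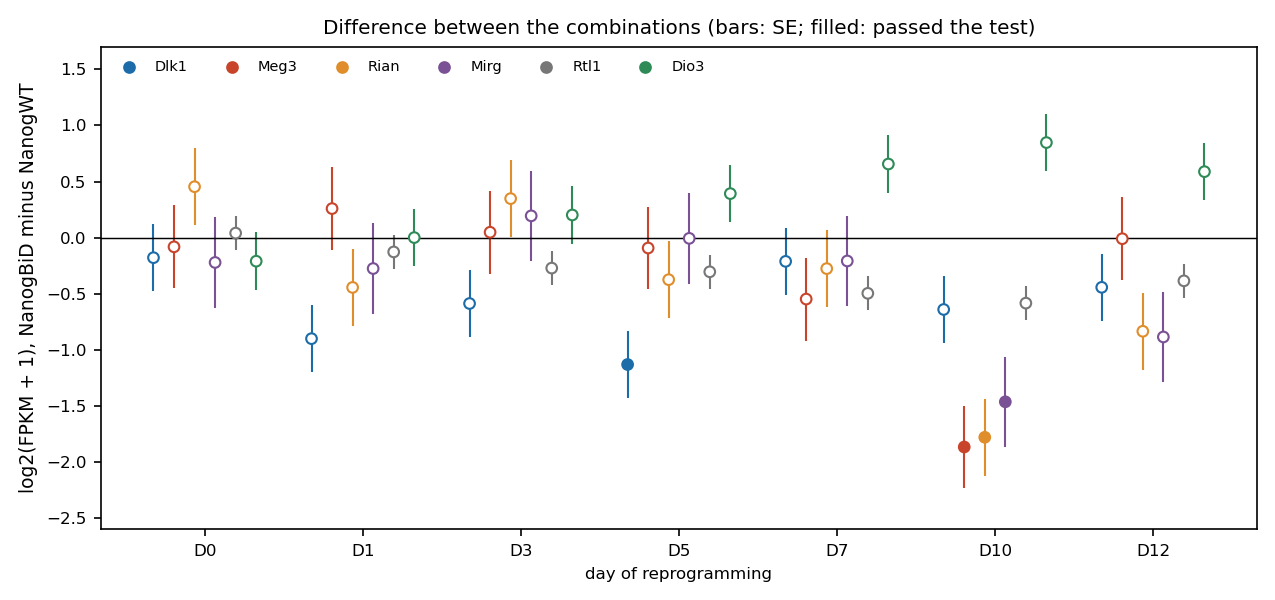
Difference between NanogBiD and NanogWT for each member on the days with 2 replicates each; the y axis is the difference of mean log2(FPKM + 1), bars are standard errors from the limma fit, and filled points passed the test. Filled points are Dlk1 at D5 (-1.13) and Meg3, Rian and Mirg at D10 (-1.87, -1.78 and -1.46).

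On the days other than D5 and D10 no member was called between the combinations, against 0.76% of genes called at D0, 1.33% at D1, 3.7% at D3, 23.4% at D12 and 10.4% at D7. The largest difference was that of Dlk1 at D1 (5.85 and 4.67 FPKM in NanogWT, 2.61 and 2.08 in NanogBiD, difference -0.90, limma adjusted p = 0.128). Next came Mirg at D12 (2.99 and 3.04 against 1.29 and 1.06, difference -0.89, limma adjusted p = 0.0748) and Rian at D12 (48.9 and 69.9 against 29.5 and 35.5, difference -0.84, limma adjusted p = 0.0487). None of these overlapped between the combinations, with 2 libraries each, and all stayed under the limit on size. Rtl1 had smaller differences at D7 (-0.50, limma adjusted p = 0.0174) and D12 (-0.39, limma adjusted p = 0.0386), also under that limit.

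Rian and Mirg were below their D0 levels at the end in NanogBiD. Rian read 131 and 125 FPKM at D0, 39.9 and 47.3 at D1 and 29.5 and 35.5 at D12 in NanogBiD, and 104 and 83.4 at D0, 61.5 and 57.6 at D1 and 48.9 and 69.9 at D12 in NanogWT. The D12 values lay below the D0 values in both combinations. In NanogBiD, Rian fell by 1.95 (SE 0.34, adjusted p = 6.0e-05) and Mirg by 1.24 (SE 0.40, adjusted p = 0.0120) from D0 to D12 (limma with Benjamini-Hochberg adjustment), where 34.7% of genes were called. In NanogWT no member was called over the same days, against 16.2% of genes, and Rian differed by -0.67 (limma adjusted p = 0.137). The change of Rian differed between the combinations by -1.29 (SE 0.48, limma with Benjamini-Hochberg adjustment, adjusted p = 0.0431), where 23.9% of genes were called, and the call was lost in 6 of the 8 leave-outs of a library (adjusted p up to 0.160), all but those of replicate 1 of NanogWT at D0 or at D12. At D7 no member differed in this way, against 10.1% of genes.

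By D7 Rian (27.3 and 68.3 FPKM) had fallen by 1.55 (SE 0.34, adjusted p = 0.0011) in NanogBiD, and Mirg by 1.16 in NanogBiD (SE 0.40, adjusted p = 0.0250) and by 1.18 in NanogWT (SE 0.40, adjusted p = 0.0263), by limma with Benjamini-Hochberg adjustment; 18.8% and 17.7% of genes were called. These calls rested on single libraries. Without NanogBiD D7 replicate 1 the Rian value was -0.90, and the Mirg call in NanogBiD was lost without any 1 of the 4 libraries. In NanogWT the Mirg call was lost without replicate 1 of D0 (-0.59) or replicate 1 of D7 (-0.82). From D0 to D5 Mirg was also called in NanogWT (-1.22, limma adjusted p = 0.0229, 16.1% of genes called) and in NanogBiD (-1.0, limma adjusted p = 0.04999), and Rian in NanogBiD (-1.69, limma adjusted p = 0.00049). The D5 calls of Mirg were lost when single libraries were left out, while those of Dlk1 and Rian in NanogBiD were kept without each of the 4 libraries.

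The other paternal genes, Rtl1 and Dio3, were low, and neither was called between the combinations on any day. Rtl1 in NanogWT read 0.232 and 0.0846 FPKM at D0, 1.28 and 0.849 at D7 and 1.23 and 1.57 at D8. Its NanogBiD values ranged from 0.0820 to 0.491 FPKM over all days. The NanogWT values at D7 and D8 lay above all NanogBiD values, and the D0 to D7 difference in NanogWT was 0.83 (SE 0.15, limma with Benjamini-Hochberg adjustment, adjusted p = 0.00018), under the limit on size. On a scale with a pseudocount of 0.1 it was 2.21 and was called. Rtl1 passed the filter on low values only through NanogWT libraries, D7 among them, so neither result is independent of its entry. With reads of 7 to 271 per library, Rtl1 values are the least precise beside those of Dio3.

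Dio3 came up in NanogBiD. Its NanogBiD replicates held no read at D0 or D1, then 30 and 12 reads by D7, 40 and 28 by D10 and 55 and 11 by D12, and its level at D12 was 2.24 and 0.405 FPKM. In NanogWT it held 0 and 10 reads at D0 and at most 2 reads in each library from D1 to D7. It held 24 and 38 reads there at D12, in libraries read more deeply, or 0.249 and 0.614 FPKM. Against a floor of 3 reads per library at D0, the NanogBiD mean of 1.32 FPKM at D12 was 13.4-fold higher. The level was 22.7-fold higher with replicate 1 alone and 4.11-fold with replicate 2 alone. Read mates were counted separately, so 3 reads stand for fewer than 3 fragments. These folds are therefore not strict lower bounds, and the read numbers above overstate the independent fragments. The floor is taken over the NanogBiD D0 libraries only. NanogWT D0 replicate 2 (0.339 FPKM) and MEF replicate 1 (0.351 FPKM) held 10 reads each, near the level of NanogBiD D12 replicate 2. The D0 to D12 difference in NanogBiD was 1.09 (SE 0.26, limma with Benjamini-Hochberg adjustment, adjusted p = 0.0010), but without NanogBiD D12 replicate 1 it was 0.49 and no longer called (adjusted p = 0.0553). The difference between the combinations at D12 was 0.59 (limma adjusted p = 0.0629). Dio3 passed the filter on low values only through NanogBiD libraries of D10 and D12. Neither difference is therefore independent of its entry into the test.

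In the established iPSC the domain was expressed at levels unlike those of MEF. In the transcript table, summed per gene, Dlk1 was at 51.2 and 13.9 FPKM in MEF and had a lowest, median and highest value of 0.057, 0.245 and 0.760 over the 12 iPSC samples. Meg3 was at 72.5 and 33.1 FPKM in MEF and at 1.82, 3.45 and 8.65 in iPSC. Rian was at 62.6 and 33.9 in MEF and at 5.67, 8.67 and 13.6 in iPSC. For these genes no iPSC sample reached either MEF value. Mirg, at 13.2 and 5.30 in MEF and 1.62, 2.64 and 4.11 in iPSC, was likewise apart. Dio3 lay the other way, at 0.264 and 0.058 FPKM in MEF and 0.808, 1.93 and 2.86 in iPSC. Rtl1 was low in all of these libraries, with overlap (0.250 and 0.103 in MEF, 0.009 to 0.282 in iPSC). Values of this table are not comparable with those of the gene table, since mES Meg3 is 9.39 FPKM in one and 5.56 in the other.

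**Figure D3:**
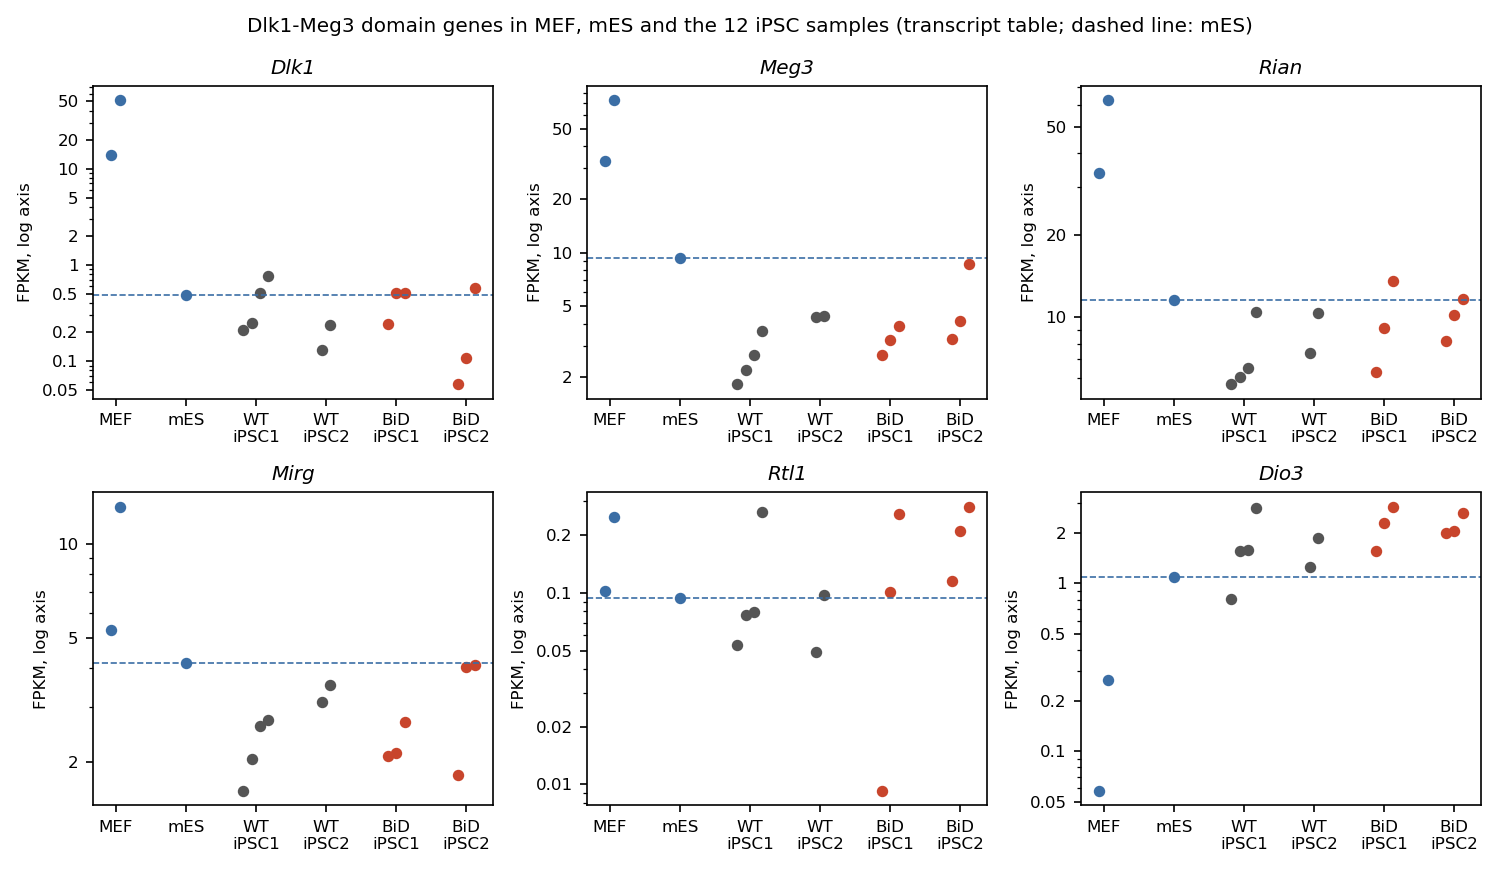
Level (FPKM on a log axis, transcript table summed per gene) of each member in 2 MEF samples, 1 mES sample and the 12 iPSC samples by combination and line; the dashed line is mES. Dlk1, Meg3, Rian and Mirg lay below both MEF samples in all 12 iPSC samples and Dio3 above both, while no Meg3 or Mirg value crossed the mES line.

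Of 13312 genes tested against MEF, 40.7% were called, 18.8% lower and 21.9% higher. Dlk1 fell by 4.42 (SE 0.33, adjusted p = 1.7e-07), Meg3 by 3.42 (SE 0.31, adjusted p = 7.0e-07), Rian by 2.29 (SE 0.28, adjusted p = 9.3e-06) and Mirg by 1.35 (SE 0.28, adjusted p = 0.00080), and Dio3 rose by 1.31 (SE 0.24, adjusted p = 0.00029), by limma with Benjamini-Hochberg adjustment. Dlk1 passed the filter on low values only through the 2 MEF samples and Dio3 only through the iPSC samples, so that their differences follow from their entry. Without MEF replicate 1 Mirg differed by -0.76 and was not called, and Dlk1 was not tested. Rtl1 did not pass the filter.

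Each iPSC sample was then set against the single mES sample, with no test, since mES has no replicate. Meg3 (9.39 FPKM in mES) lay below mES in 12 of 12 samples, as 26.2% of 12662 genes did. In NanogBiD iPSC1 it was at 3.89 FPKM in 4#, 3.25 in 8# and 2.65 in 9#, which are 41.4%, 34.6% and 28.2% of mES. In NanogBiD iPSC2 it was at 8.65 in 1#, 3.27 in 2# and 4.13 in 3#, or 92.1%, 34.8% and 43.9%. One sample, NanogBiD iPSC2 1#, thus stood near mES and apart from the other 5 of its combination. In NanogWT iPSC1 it was at 2.65 FPKM in 1#, 1.82 in 1#-2, 2.18 in 2# and 3.63 in 3#, or 28.2%, 19.3%, 23.2% and 38.6%. In NanogWT iPSC2 it was at 4.43 in 5# and 4.33 in 6#, or 47.2% and 46.1%. In 11 of 12 samples Meg3 was at least 2-fold below mES, which 4.98% of genes showed in as many samples, and in 2 samples, NanogWT iPSC1 1#-2 and 2#, at least 4-fold (11.4% of genes in at least as many). No iPSC sample lacked Meg3. One of the 3 Meg3 transcripts made up 73.3% to 94.4% of its sum in iPSC and 87.5% in mES, and read alone it was also below mES in 12 of 12 samples.

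Rian and Mirg, further along the same maternal side, were closer to mES. Rian (11.6 FPKM in mES) was at 118%, 54.2% and 79.1% of mES in NanogBiD iPSC1 4#, 8# and 9# and at 101%, 88.3% and 70.9% in NanogBiD iPSC2 1#, 2# and 3#. It was at 52.2%, 49.1%, 56.5% and 90.4% in NanogWT iPSC1 1#, 1#-2, 2# and 3# and at 64.2% and 89.4% in NanogWT iPSC2 5# and 6#. It was thus below mES in 10 of 12 samples (42.6% of genes in at least as many), and at least 2-fold below in 1 (37.1% of genes). Mirg (4.14 FPKM in mES) was at 64.8%, 51.4% and 50.3% in NanogBiD iPSC1 and at 99.2%, 97.6% and 44.0% in NanogBiD iPSC2, in the same order. It was at 49.5%, 39.0%, 62.8% and 65.6% in NanogWT iPSC1 and at 85.1% and 75.0% in NanogWT iPSC2. All 12 Mirg values were below mES, 3 of them at least 2-fold, as 24.2% of genes were in as many. The medians over 12 samples were 36.7% of mES for Meg3, 75.0% for Rian and 63.8% for Mirg.

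**Figure D4:**
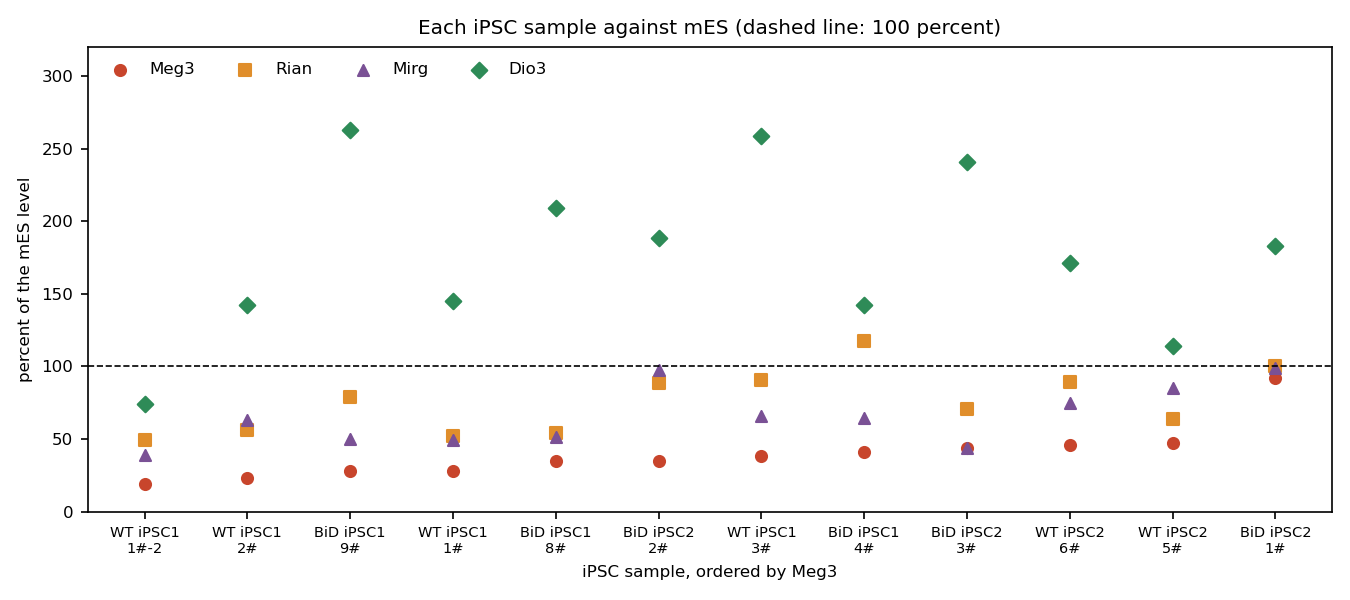
Level of Meg3, Rian, Mirg and Dio3 in each of the 12 iPSC samples as a percentage of the single mES sample (dashed line, linear axis from 0), ordered by Meg3. Meg3 ran from 19.3% in NanogWT iPSC1 1#-2 to 92.1% in NanogBiD iPSC2 1#, and Dio3 was above the line in 11 of 12 samples.

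On the paternal side Dio3 (1.09 FPKM in mES) was above mES in 11 of 12 samples, as 19.4% of genes were in at least as many. It stood at 143%, 209% and 263% in NanogBiD iPSC1, at 183%, 188% and 241% in NanogBiD iPSC2, at 145%, 74.2%, 142.5% and 259% in NanogWT iPSC1 and at 114% and 172% in NanogWT iPSC2, in the order above. It was at least 2-fold above in 4 samples, which 10.2% of genes showed in as many. Dlk1 (0.487 FPKM in mES) ranged from 11.8% to 156% of mES and Rtl1 (0.094) from 9.82% to 299%, at levels too low for the order of samples to be read. Dlk1 was at least 4-fold below mES in 2 samples, as 11.4% of genes were in at least as many. Those genes had at least 1 FPKM in mES or in at least 2 iPSC samples, which Dlk1 did not. The fibroblast marker sum in the iPSC ranged from 1.24 to 1405 FPKM, against 3.92 in mES and 6584 to 7387 in MEF. It was highest in NanogBiD iPSC1 9# (1405) and NanogWT iPSC1 3# (440), where Dlk1 was at 104% and 156% of mES. Dlk1 was also at 118% in NanogBiD iPSC2 2# and 104% in NanogWT iPSC1 1#-2, where the sum was 1.85 and 6.56 FPKM. In NanogBiD iPSC1 8# Dlk1 was at 105%, with a sum of 122 FPKM, and in NanogWT iPSC1 1# at 51.5%, with 153. The part of these markers in the Dlk1 values was not tested.

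Between the combinations no member was called in the iPSC. Meg3, Rian, Mirg and Dio3 passed the filter, and 0 of 12456 genes were called by limma (0%), with 201 at an unadjusted p under 0.05. The NanogBiD minus NanogWT differences were 0.22 (SE 0.20) for Meg3, 0.28 (SE 0.19) for Rian, 0.00 (SE 0.16) for Mirg and 0.31 (SE 0.18) for Dio3, with limma adjusted p of 0.999 or more. Leaving out any 1 sample, NanogBiD iPSC1 9# included, kept Meg3 between 0.10 and 0.31. NanogBiD and NanogWT values overlapped for all 6 members. Between the lines, where 0.883% of genes were called, iPSC2 was higher than iPSC1 by 0.55 (SE 0.20, limma adjusted p = 0.119) for Meg3 and by 0.38 (SE 0.17, limma adjusted p = 0.183) for Mirg, which did not pass. The iPSC2 median of Meg3 was 4.33 FPKM (lowest 3.27, highest 8.65, n = 5) and that of iPSC1 2.65 (lowest 1.82, highest 3.89, n = 7). For the difference of the combinations between the lines, limma called 0 of 12456 genes, with 324 at an unadjusted p under 0.05.

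Among the iPSC samples Meg3 varied more than most genes. Its SD on the log2 scale was 0.46, above 83.5% of all genes and 77.3% of genes of like level, with the highest sample 4.76-fold over the lowest. Those of Rian (0.37), Dio3 (0.33) and Mirg (0.32) were above 78.3%, 44.2% and 46.7% of genes of like level. Over 12 samples Meg3 and Rian had a Pearson r of 0.63 (permutation p = 0.0218, adjusted over 6 pairs 0.0655) and a Spearman rho of 0.64 (permutation p = 0.0301, adjusted 0.0603), and Meg3 and Mirg an r of 0.66 (permutation p = 0.0152, adjusted 0.0655) and a rho of 0.66 (permutation p = 0.0223, adjusted 0.0603), both tests two-sided. Without the 2 samples farthest from the median of Meg3, NanogBiD iPSC2 1# and NanogWT iPSC1 1#-2, r was 0.47 and 0.31, so these relations rest on those samples. Rian and Mirg had an r of 0.59 (permutation p = 0.0475, adjusted 0.0950) and a rho of 0.66 (permutation p = 0.0235, adjusted 0.0603), with r of 0.59 without the 2 samples farthest from the median of Rian. No pair passed after adjustment. Within iPSC1 (n = 7) r was 0.76, 0.68 and 0.68 for the same pairs, and iPSC2 held too few samples. Dio3 had an r of 0.28 with Meg3 (permutation p = 0.378, adjusted 0.453, rho 0.10), 0.40 with Rian (permutation p = 0.196, adjusted 0.294, rho 0.35) and 0.05 with Mirg (permutation p = 0.872, adjusted 0.872, rho 0.01).

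The genes most like Meg3 over the iPSC samples, by Pearson correlation of log2(FPKM + 1) among 12447 genes, were Lsm1 (0.91), Plaa (0.91), Srsf10 (0.90), 2810403A07Rik (0.88) and 2410137M14Rik (0.87). Over the 31 time-course libraries, among 16805 genes, they were Malat1 (0.87), Gm30543 (0.87), Azin2 (0.85), Klc1 (0.85) and Mmp17 (0.84). Of the members, Mirg (0.64) and Dlk1 (0.63) were the most like Meg3 there, before Rtl1 (0.45), Rian (0.35) and Dio3 (-0.02). Depth, day and combination differ between the time-course libraries and partly go together, and no p is given.

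The rest of the domain was sparse. Between Begain and Ppp2r5c, the protein-coding genes on either side, the annotation places 111 genes, of which 85 besides the members are in each table. At 1 FPKM or more in at least 2 time-course libraries there were 31 of them: Begain and Ppp2r5c, the long non-coding 6430411K18Rik, the pseudogene Gm6988, 20 microRNA genes and 7 small nucleolar RNA genes. Whether messenger RNA was enriched is uncertain, since the labels and the methods name different kits. Reads of a host transcript and of a small RNA gene inside it cannot be told apart. Mir1906-1, inside a Meg3 exon, peaked at 158 FPKM and AF357359, inside Rian, at 170, while the other 25 small RNA genes peaked between 1.31 and 8.03 FPKM. They were Mir770, Mir3070a, Mir3070b, Mir431, Mir433, Mir127, Mir434, Mir432, Mir3071, Mir136, Mir341, Mir1188, Mir668, Mir453, Mir377, Mir541, Mir412, Mir410, Mir3072, AF357425, AF357426, DQ267100, DQ267101, AF357355 and DQ267102, among them the genes of all 5 microRNAs printed above. In at least 2 iPSC samples 5 genes reached 1 FPKM: AF357359, Ppp2r5c, Gm6988, Mir3072 and Begain. The flanking gene Begain, known in the synapse, rose from D0 to D12 by 1.32 (SE 0.21) in NanogWT and 2.29 (SE 0.21) in NanogBiD, with limma adjusted p of 4.0e-05 and 1.2e-08. Against MEF its difference in the iPSC was -1.17 (limma adjusted p = 0.00091). Ppp2r5c, a phosphatase subunit, was called in no comparison.

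The imprint upkeep list holds 14 genes that guard or change the methylation of imprinted regions, among them Zfp57, which binds methylated control regions, Dnmt3l, a partner of the methyltransferases, Dppa3, which shields methylation in the early embryo, Tet1, a demethylating enzyme, and Aff3. At D10, 8 of the 14 were called higher in NanogBiD and none lower, where 15.4% of all genes were called higher, and at D12, 10 and none, where 13.5% were, with a median difference of 1.42 against 0.17 over all genes. At D12 the difference was 1.79 (SE 0.23) for Zfp57, 4.06 (SE 0.49) for Dppa3, 2.72 (SE 0.38) for Dnmt3l and 2.06 (SE 0.24) for Tet1, with limma adjusted p (Benjamini-Hochberg) of 2.3e-06, 1.3e-06, 6.8e-06 and 5.9e-07. Before D7 only Aff3 was called, lower in NanogBiD at D3 and D5 (-2.20 at D5, limma adjusted p = 2.1e-07), where 2.45% and 3.28% of genes were called lower. At D7, 4 were called higher and 1 lower, against 5.79% and 4.65% of genes. From D0 to D12, 12 of 14 were called higher in NanogBiD (24.6% of genes) and 3 in NanogWT (12.2% of genes). None was called lower, though Aff3 differed by -0.90 in NanogBiD (limma adjusted p = 0.00056), under the limit on size. In the iPSC 13 of the 14 were tested and none was called between the combinations or lines, where 0% and 0.883% of all genes were called. Against MEF 11 were called higher in the iPSC (21.9% of all genes) and 1, Aff3, lower (18.8% of all genes), by 1.55. Their part in the levels of the domain was not tested.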

How the data were processed

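RNA-seq was analysed for 31 time-course, 12 iPSC, 2 MEF and 1 mES samples. As the study's methods describe, the authors aligned trimmed reads to mm10 with HISAT2 2.2.1, quantified expression with StringTie 2.2.1 and deposited FPKM, with replicates kept apart. The annotation and the strand setting are not given in the sources used here, and the labels and the methods name different library kits. The FPKM values were analysed with limma 3.58.1 in R 4.3.3 on log2(FPKM + 1), with an intensity trend and Benjamini-Hochberg adjustment over all genes that reached 1 FPKM in 2 or more samples of the comparison. The time course had a mean per combination and day, with 1 spread for all groups, and the iPSC had combination and line as terms. A pseudocount understates changes of low genes. Gene table values were whole multiples of the value of 1 read within 0.1 read for all members, read mates counted separately, which gave reads and the floor of 3 reads; counts, depths and floors cover counting error only. The value of 1 read came from short hairpin genes, 250 of 254 of which gave the same value. Tests were made within a table only. In a simulation, 200 genes were each given a log2 difference of 2. Of these, limma recovered 91% at D12 (4 false calls) and 99% in the iPSC comparison (2 false calls). Smaller differences, such as those of the members between the iPSC combinations, were not simulated, so these shares do not cover them.

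All 6 members were named whatever their values, neighbours between Begain and Ppp2r5c where they reached 1 FPKM in 2 samples, and of the upkeep list the genes in the text. Members and lists were chosen with earlier results of these data known. Markers of primitive endoderm, trophoblast and fat cells were also listed. Alternatives were another pseudocount, no filter, other scalings, the compared groups alone, a replicate block, other thresholds and transcripts, and leaving out replicates; the leave-outs of single libraries and the D0 to D5 and D5 to D12 contrasts were chosen after seeing the data. Samples were not treated as paired by replicate number in the main fit. The tables hold no fold changes or p-values of the authors.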

Additional observations from a re-analysis of the deposited data

Results flagged for a closer look

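Among sets of 4 to 7 iPSC samples, 3 of 30 had a sample far from the others by Dixon's criterion. Chance gives this in about 1 of 20 independent sets. These sets share samples, and the same Rtl1 sample was flagged in overlapping sets, so the shares cannot be compared directly. Meg3 was at 8.65 FPKM in NanogBiD iPSC2 1#, far above the other 5 NanogBiD samples. Rtl1 was at 0.263 FPKM in NanogWT iPSC1 2#, far above the other 5 NanogWT samples and also above the other 3 of NanogWT iPSC1, at a level near the limit of detection.

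The change of Rian from D0 to D12 differed between NanogBiD and NanogWT by -1.29 by the test of the difference itself (limma with Benjamini-Hochberg adjustment, adjusted p = 0.0431). This call rested on few libraries, as given with the result.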

How the results depend on the processing

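Counts of members called moved with the settings, as did those of all genes, given beside them. With a pseudocount of 0.1, 1 member was called between the combinations at D7, 5 at D10 and 1 at D12. Of 16842 genes, 2716, 6210 and 5211 were called on these days. From D0 to D7, 2 members were called in NanogWT and 4 in NanogBiD (4357 and 4846 genes). In NanogWT, 1 was called from D0 to D12 and 3 from D0 to D5 (4253 and 4056 genes). In the D7 interaction 1 was called (1977 genes). With no filter the counts were 0 (NanogWT D0 to D7), 1 (NanogBiD D0 to D7), 0 (NanogWT D0 to D5) and 0 (D12 interaction). Of 30494 genes, 2933, 3115, 2661 and 3817 were called in these comparisons. Rescaled to a common total the member counts were 1 at D7, 5 at D10, 1 at D12, and in NanogWT 2 from D0 to D7 and 2 from D0 to D5. Of 16842 genes, 2381, 5682, 4755, 3963 and 3675 were called in these comparisons. After quantile normalization the member counts were 1 at D12, 4 from D0 to D7 in NanogBiD and 2 from D0 to D5 in NanogWT (3911, 2883 and 2632 of 16842 genes). With the compared groups alone the member counts in NanogWT were 0 from D0 to D7 (2699 of 13793 genes) and 0 from D0 to D5 (2329 of 13674 genes). The difference of Mirg between the iPSC combinations turned to 0.00935 when rescaled and 0.0631 without the line term. The cause of these moves was not tested.

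The median of all genes from D0 to D12 in NanogBiD was 0.34, and 0.43 when rescaled and -0.01 after quantile normalization; the share of calls that were higher was 70.7% and 50.2% after quantile normalization. In NanogWT the medians were 0.19, 0.36 and -0.05 and the shares 75.5% and 55.4%. With a 2-fold threshold against mES, 6 samples were below for Dlk1, 11 for Meg3, 1 for Rian and 3 for Mirg, and 4 were above for Rtl1 and 4 for Dio3. At least as many were below in 14.5%, 4.98%, 37.1% and 24.2% of 12662 genes, and above in 10.2%. Neither Dlk1 nor Rtl1 is among these genes.

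Leaving out replicates in turn, members called ranged from 0 to 3 (NanogWT D0 to D7 and D0 to D5), 0 to 2 (NanogWT D0 to D12, NanogBiD D0 to D7), 0 to 1 (both interactions, D5, D12), 1 to 2 (NanogWT D5 to D12), 2 to 3 (D10, NanogBiD D0 to D12), 2 to 2 (NanogBiD D0 to D5), 1 to 3 (NanogBiD D5 to D12) and 3 to 5 (iPSC against MEF), and Mirg between the iPSC combinations from -0.058 to 0.107. Deviations of samples with the same replicate number had correlations of -0.065 to 0.394 over the days, highest at D7 (0.394) and D0 (0.227). With a replicate block the count of members called was 3 at D10 and 1 at D5 (4683 and 1116 of 16842 genes) and moved in no comparison. The block was 1 term shared by all days, so pairing within a day was not tested. Leaving out a replicate number in all groups at once gave values with no test.

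The single mES sample, 2 replicates per day and low reads of Rtl1 and Dio3 limit what can be read. The part that medium, depth and fibroblast markers play after D7 was not tested.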
